A study of Rattus norvegicus with 24 samples.

Results

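The libraries described here are 6 of the 24 nucleus accumbens (NAc) RNA-Seq libraries in which Ttr, the transthyretin gene, reached an FPKM of at least 500. They were set against the 17 libraries with a Ttr FPKM under 100, and 1 library lay between these levels. FPKM counts fragments per unit of transcript length and per unit of sequenced fragments, so it is already scaled for gene length and library size. The 6 libraries are called Ttr-rich and the 17 Ttr-poor. Because the libraries were chosen by their Ttr value, every difference between them is a description with no test, and Ttr itself is not a finding.

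The choroid plexus is a folded sheet of epithelium on a leaky, fenestrated capillary bed that hangs in the ventricles and secretes cerebrospinal fluid. Its cells import ions and water through channels, exchangers and aquaporin 1, carry folate and hormones between blood and fluid, and release transthyretin, which binds thyroid hormone. The NAc lies close to the lateral ventricle, and ependyma, meninges, septum and cortex are also its neighbours. In bulk tissue, fewer cells of a type and less RNA per cell cannot be told apart.

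The pups were Sprague Dawley rats killed at postnatal day 14 (P14), and each of the 6 groups held 4 libraries from separate litters. In the in utero oxycodone (IUO) lineage, F0 females were gavaged with oxy from 10 up to 15 mg/kg/day before mating and onward until their pups were weaned. In the postnatal oxycodone (PNO) lineage, F0 dams received 15 mg/kg/day from birth to weaning, and saline (SAL) was the control. F1 pups were exposed through the dam, and F2 pups were born to F1 animals that were not dosed. The NAc was cut out in a brain matrix, the labels do not say which pups were male, and no allele or transgene was involved.

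Ttr-rich libraries occurred in 5 of the 6 groups. Ttr stood at 12103 FPKM in F2 IUO replicate 1, 8011 in F1 IUO replicate 3, 6696 in F2 PNO replicate 4, 5121 in F1 SAL replicate 1, 3742 in F1 PNO replicate 3 and 973 in F1 IUO replicate 4. F1 IUO replicate 4 was therefore the library just inside the limit. F1 PNO replicate 1, at 245, fell between the limits, so it entered neither set but did enter the group mean and the comparisons between groups. F2 SAL replicate 3, at 77.3, was just outside. Over the 17 Ttr-poor libraries Ttr ran from 1.75 through a median of 7.36 to 77.3 FPKM, and F2 SAL held no Ttr-rich library. Ttr took between 0.182% and 1.92% of all summed FPKM in the Ttr-rich libraries. The summed FPKM ran from 535866 to 632010 in the Ttr-rich and from 594928 to 766781 in the Ttr-poor libraries. Sequencing depth is unknown, so no counting interval is given and a value of 0 is described only as listed at 0.

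**Figure D1:**
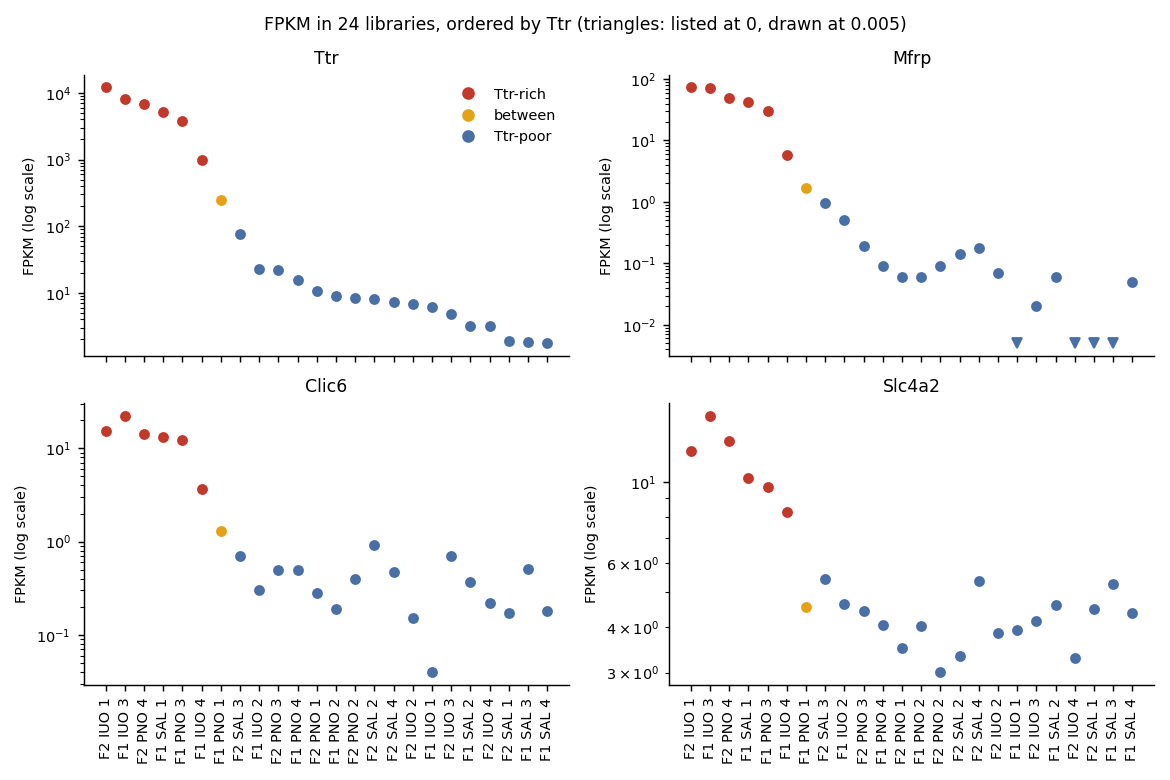
FPKM (log axis) of Ttr, Mfrp, Clic6 and Slc4a2 in each of the 24 libraries, ordered from the highest to the lowest Ttr, with red for the 6 Ttr-rich, yellow for the 1 between and blue for the 17 Ttr-poor libraries. Mfrp, Clic6 and Slc4a2 were each higher in every red point than in every blue one, and Slc4a2 in the yellow point, at 4.53, lay inside the blue range of 3.01 to 5.41.

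For each gene, log2(FPKM + 0.1) was centred on the mean of its generation and treatment group, and the mean of the Ttr-poor libraries was taken from that of the Ttr-rich ones. A gene was called higher when this difference was at least 1 and the centred values of the 2 sets did not overlap. Genes needed 0.1 FPKM or more in at least 4 libraries, and of the 19134 that did, 22 (0.115%) were called higher and 0 (0%) lower. Without the requirement on overlap, 486 genes (2.54%) had a difference of at least 1 and 86 (0.449%) one of at most -1. The median difference of all genes was 0.12, and 0.01 after upper-quartile rescaling. Centring on 4 libraries that include the Ttr-rich one shrinks a true shift of 1 to 0.89, and the pseudocount understates the change of genes near 0.

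The count of 22 depended on which libraries entered and on how the groups were centred. F1 IUO held 2 Ttr-rich libraries, of which replicate 4 was low. On this scale even Ttr overlapped, although its FPKM did not, and without F1 IUO replicate 4 the count was 106. Without F1 IUO replicate 3 it was 63, and without F2 IUO replicate 1 it was 11. On FPKM itself, 56 genes (0.293%) were higher in every Ttr-rich than in every Ttr-poor library. Comparing each Ttr-rich library only with the Ttr-poor ones of its own group, a choice made after seeing the data, 116 genes (0.606%) passed with a difference of at least 1, in groups where F2 SAL could not take part.

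The choroid plexus lists held 60 gene symbols, of which 58 were tested. Leaving out Ttr, which chose the libraries, 55 of 57 genes had a positive difference, 35 a difference of at least 1, 21 did not overlap on FPKM and 8 were called higher. Over all 19134 genes, 13611 had a positive difference, 486 (2.54%) one of at least 1, 56 (0.293%) no overlap on FPKM and 22 (0.115%) were called. The median difference of the 57 was 1.48 against 0.12 over all genes. Of the 57, Cldn2 and Prlr reached the level tested only through the Ttr-rich libraries, so a difference in them was built in. The same held for 6 of the 22 called genes, and 33 of the other 55 choroid plexus genes had a difference of at least 1. The label was checked with the markers Kl, Folr1 and Clic6, and the FPKM of all 3 was higher in each of the 6 Ttr-rich libraries than in any of the 17 Ttr-poor ones. On the centred scale Kl and Folr1 overlapped, so they were not among the 22 called genes.

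Of 12 ion and water transport genes, 9 had a difference of at least 1 and the median was 2.29. Clic6, a chloride intracellular channel gene (ENSRNOG00000026870), had an FPKM of 3.66 at the lowest, 13.7 at the median and 22.2 at the highest in the Ttr-rich libraries, and of 0.04, 0.37 and 0.91 in the Ttr-poor ones. Its sets did not overlap, and its difference was 4.48 ± 0.99 (SD over the Ttr-rich libraries, n = 6). Kcnj13, the inward rectifier Kir7.1 of the apical membrane, ran from 1.16 to 15.2 FPKM against 0 to 1.03, a difference of 4.63 ± 1.51 (SD, n = 6).

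Aqp1, the water channel of the apical membrane, read 11.4 FPKM in F2 IUO replicate 1, 14.6 in F1 IUO replicate 3, 9.91 in F2 PNO replicate 4, 7.91 in F1 SAL replicate 1, 5.40 in F1 PNO replicate 3 and 1.79 in F1 IUO replicate 4. It ran from 0.02 to 0.82 in the Ttr-poor libraries, so every Ttr-rich library stood above them, with a difference of 4.10. The sodium bicarbonate cotransporter gene Slc4a5 differed by 4.14, the potassium channel subunit gene Kcne2 by 2.62, the osmosensitive channel gene Trpv4 by 2.65 and the carbonic anhydrase genes Car14 and Car12 by 1.97 and 1.76. Slc4a2, the basolateral anion exchanger, was called higher at a smaller 1.28 ± 0.40 (SD, n = 6), with 8.28 to 15.2 FPKM against 3.01 to 5.41. The sodium pump subunit gene Atp1b1 (0.10) and the cotransporter gene Slc12a2 (0.24) barely differed, and both were well expressed in Ttr-poor tissue, with medians of 463 and 8.76 FPKM.

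Apart from Ttr, the secreted group gave 7 of 13 genes with a difference of at least 1 and a median of 1.36. Mfrp, a membrane frizzled-related protein gene (ENSRNOG00000039107), had the next difference after Ttr, 6.85 ± 1.95 (SD, n = 6). Its centred values overlapped, so it was not called higher, although its FPKM did not overlap. Its FPKM was 5.89 at the lowest, 46.3 at the median and 73.3 at the highest in the Ttr-rich libraries, and 0, 0.06 and 0.96 in the Ttr-poor ones. Mfrp overlaps C1qtnf5 in the genome, and whether the authors' counting separated them is not stated. The BMP and WNT antagonist gene Sostdc1 differed by 4.80, coagulation factor F5 by 3.76 and RGD1305645, an older symbol of the augurin gene Ecrg4, by 2.79.

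Enpp2, which encodes autotaxin, was among the genes called higher, at 40.3 to 141 FPKM against 8.12 to 22.3, a difference of 2.20. Igfbp2, an insulin-like growth factor binding protein gene, was also called, at 126 to 271 FPKM against 40.4 to 110, a difference of 1.48. These are abundant in Ttr-poor NAc as well, with medians of 15.8 and 66.6 FPKM. Igf2 differed by 1.36 and clusterin (Clu) by 0.66, and both overlapped. Wfdc2 had a difference of 0.15.

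Promoters are shown for 3 genes with a difference of at least 1 that held the letters TAATCC, the core recognised by OTX factors. Cltrn was called higher, while Mfrp and Car14 were not. Otx2 is among the listed genes, but its FPKM overlapped between the sets and it was not called. They are RefSeq sequences of build GRCr8 from 250 bases before to 50 bases after the gene's start, written 5′ to 3′ on the gene's strand, with TAATCC or its reverse complement in capitals. Mfrp lies on the plus strand at chr8:53342284-53342583, Car14 on the minus strand at chr2:186138115-186138414 and Cltrn on the minus strand at chrX:34027075-34027374.
Mfrp: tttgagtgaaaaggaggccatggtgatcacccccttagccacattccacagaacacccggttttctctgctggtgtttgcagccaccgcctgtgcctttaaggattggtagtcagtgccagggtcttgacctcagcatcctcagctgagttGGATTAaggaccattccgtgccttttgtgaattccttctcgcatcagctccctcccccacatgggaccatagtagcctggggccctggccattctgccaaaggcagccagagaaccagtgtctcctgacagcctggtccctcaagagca
Car14: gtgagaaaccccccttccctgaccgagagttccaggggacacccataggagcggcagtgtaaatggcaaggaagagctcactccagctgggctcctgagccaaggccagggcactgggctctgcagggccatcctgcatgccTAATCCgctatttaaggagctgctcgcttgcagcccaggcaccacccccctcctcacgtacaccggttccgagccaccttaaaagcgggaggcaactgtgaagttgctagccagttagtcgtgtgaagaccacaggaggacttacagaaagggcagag
Cltrn: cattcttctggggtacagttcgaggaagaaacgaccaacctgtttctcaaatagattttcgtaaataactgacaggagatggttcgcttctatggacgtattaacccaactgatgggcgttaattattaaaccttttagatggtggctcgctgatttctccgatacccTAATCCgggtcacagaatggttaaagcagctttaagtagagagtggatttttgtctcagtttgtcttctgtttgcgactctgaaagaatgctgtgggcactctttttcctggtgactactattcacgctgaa
The motif began 99 bases before the start of Mfrp, 108 before that of Car14 and 82 before that of Cltrn. Of the 50 genes that were called or were choroid plexus genes with a difference of at least 1, 39 had a promoter in the table. TAATCC on either strand was in 5 of these 39 (12.8%), the others being Ace and Adipoq, and in 7.17% of all 33469 promoters. TGTTTAC, a forkhead motif, was in 1 (2.56%), Acsm3, against 3.78% of all. GTTGCC, part of the RFX motif, was in 6 (15.4%) against 12.2%. A match is a run of letters and not a shown binding site.

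The receptor and membrane protein group held 7 genes, and 5 had a difference of at least 1. Kl, the Klotho co-receptor for FGF23 (ENSRNOG00000001092), had an FPKM of 2.35 at the lowest, 9.88 at the median and 18.4 at the highest in the Ttr-rich libraries. In the Ttr-poor libraries it had 0, 0.25 and 0.55, and its difference was 4.27 ± 1.42 (SD, n = 6). Steap1, a metalloreductase family gene, differed by 2.84, Tmem72 by 2.69, the prolactin receptor Prlr by 1.29 and the angiotensin-converting enzyme gene Ace by 1.14. Prlr was listed at 0 in 2 of the Ttr-rich libraries. The serotonin receptor gene Htr2c, a classical choroid plexus transcript that neurons also express, ran from 21.2 to 35.6 FPKM against 19.3 to 39.9, with a difference of -0.13.

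The solute transport group moved least among the choroid plexus groups, with 3 of 11 genes at a difference of at least 1 and a median of 0.54. Folr1, the folate receptor alpha gene (ENSRNOG00000019902), ran from 9.53 through 40.8 to 86.2 FPKM against 0.77, 1.91 and 4.76, a difference of 3.80 ± 1.25 (SD, n = 6). The sulphate transporter gene Slc13a4 differed by 2.35 and overlapped, at 4.23 to 19.1 FPKM against 0.35 to 7.39. The monocarboxylate transporter gene Slc16a8 differed by 1.03. The remaining 8, among them the organic anion transporter gene Slc22a8 (0.33), differed by 0.20 to 0.61.

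Epithelial genes gave 7 of 10 with a difference of at least 1 and a median of 2.10. Cldn2, the claudin of leaky tight junctions, was called higher at 4.58 ± 1.36 (SD, n = 6), with 0.88 to 7.98 FPKM against 0 to 0.15. Cldn1 differed by 2.94 and Cldn3 by 1.43. Keratin genes Krt8 and Krt18 differed by 2.45 and 1.86, and Calml4, a calmodulin-like gene that was called, by 2.59. Epcam, an epithelial adhesion gene, did not follow: it was 15.0 FPKM in F2 PNO replicate 4 and 0.23 to 1.43 in the other Ttr-rich libraries.

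All 4 transcription factor and RNA regulator genes tested had a difference of at least 2. Msx1, a homeobox gene of the dorsal midline, was called higher at 3.0 ± 0.94 (SD, n = 6), with 3.76 to 23.6 FPKM against 0 to 3.02. The roof plate factor gene Lmx1a differed by 2.56, the choroid plexus determinant Otx2 by 2.39 and Rbm47 by 2.13. Lmx1a and Rbm47 did not overlap on FPKM and Otx2 did, at 0.66 to 4.30 against 0 to 1.96.

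**Figure D2:**
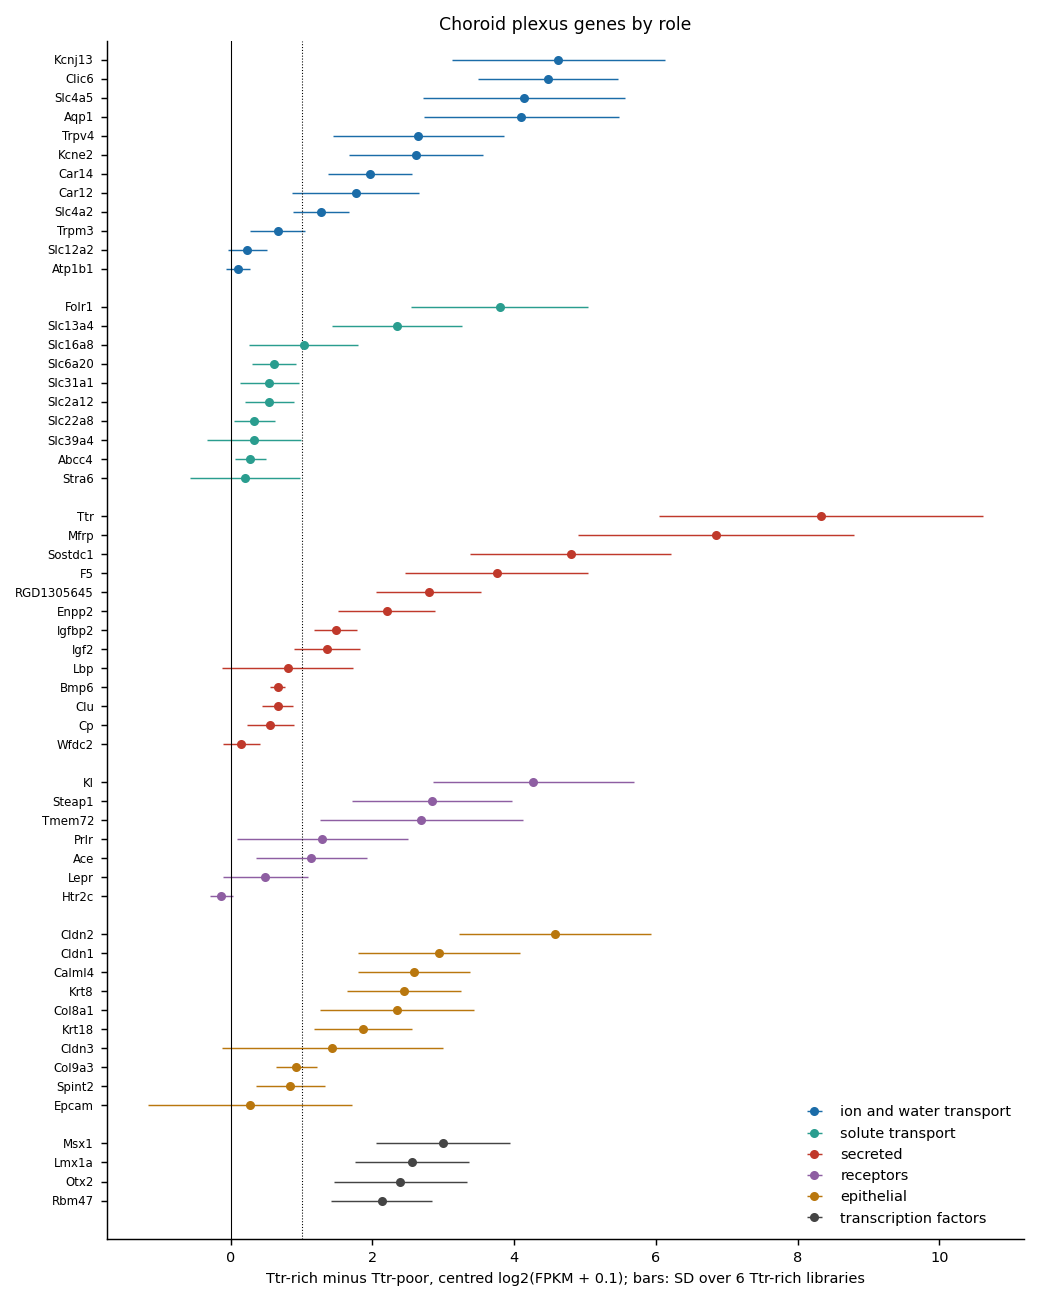
Difference of 56 of the 58 choroid plexus genes (x axis, centred log2(FPKM + 0.1), Ttr-rich minus Ttr-poor), grouped and coloured by role, with bars for the SD over the 6 Ttr-rich libraries and a dotted line at 1. Ttr and Mfrp lie farthest to the right, while Htr2c lies just left of 0.

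Outside the lists, 14 genes were called higher, 9 of them with a mean of at least 1 FPKM in the Ttr-rich libraries. Slco1a2, an organic anion transporter gene, ran from 0.90 to 5.51 FPKM against 0 to 0.09, a difference of 4.17. RefSeq gives that symbol as a synonym of 2 near-identical family members, so the assignment of its reads is uncertain. Cltrn, the collectrin gene, ran from 0.47 to 4.42 FPKM against 0 to 0.04, a difference of 4.07 ± 1.27 (SD, n = 6). Both were at or near 0 in every Ttr-poor library and reached the level tested only through the Ttr-rich ones, so they had to differ.

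RGD1561795 differed by 2.96, the actin regulator gene Eps8l2 by 1.82, the medium-chain acyl-CoA synthetase gene Acsm3 by 1.51 and the lipid droplet gene Plin3 by 1.45. The complement gene C1r differed by 1.31, the WNT receptor gene Fzd7 by 1.24 and Tekt4, a tektin gene of ciliary microtubules, by 1.11. These were detected in Ttr-poor tissue too, with Ttr-poor medians from 0.43 FPKM for Acsm3 to 2.20 FPKM for C1r. The other 5 called genes were under 1 FPKM, among them Adipoq at 0.37 to 1.20 against 0 to 0.13. Adipoq also passed the level only through the Ttr-rich libraries. The rule for a call used centred values, so a called gene could still overlap on FPKM. Of the 14 called genes outside the lists, 9 reached the level without relying on the Ttr-rich libraries. RGD1561795, Eps8l2, Acsm3, Plin3, C1r, Fzd7 and Tekt4 were among these 9. Only 3 of the 9 did not overlap on FPKM, so most of them did.

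The F1 and F2 libraries share no sample, so each generation was also described alone. In F1 (4 Ttr-rich against 7 Ttr-poor) 111 of 18135 genes (0.612%) were called higher, and in F2 (2 against 10) 433 of 17929 (2.42%). Of these, 55 genes were called in both, 49.5% of the F1 list and 12.7% of the F2 list. The 55 comprised 23 choroid plexus genes, Ttr included, and 32 outside all lists. Slco1a2, Cltrn, Cldn2 and Adipoq were below the level tested in F2 and have no F2 value. By contrast, 16 genes were called lower in F1 and 42 in F2, and 0 were lower in both. In opposite directions, 1 gene was called higher in F1 and lower in F2, and 0 the other way round. Among the shared choroid plexus genes, Mfrp differed by 6.92 in F1 and 7.70 in F2, Kl by 4.11 and 5.09, and Clic6 by 4.82 and 4.57.

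Several of the 32 were not among the 22, and are named after their values were seen. Mdk, the growth factor midkine, ran from 50.2 to 220 FPKM against 23.4 to 54.5, and its difference was 1.52 in F1 and 2.12 in F2. Mmp2, a matrix metalloproteinase gene, ran from 7.87 to 23.1 FPKM against 2.14 to 4.49, and differed by 1.82 and 2.20. Slc5a5, the sodium iodide symporter gene, differed by 1.71 and 2.29. Prr32 differed by 3.45 and 4.39, the cartilage matrix gene Cnmd by 3.68 and 4.85, the TGF-beta family antagonist gene Wfikkn2 by 3.31 and 3.68, and the basement membrane collagen gene Col8a2 by 3.25 and 3.25.

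**Figure D3:**
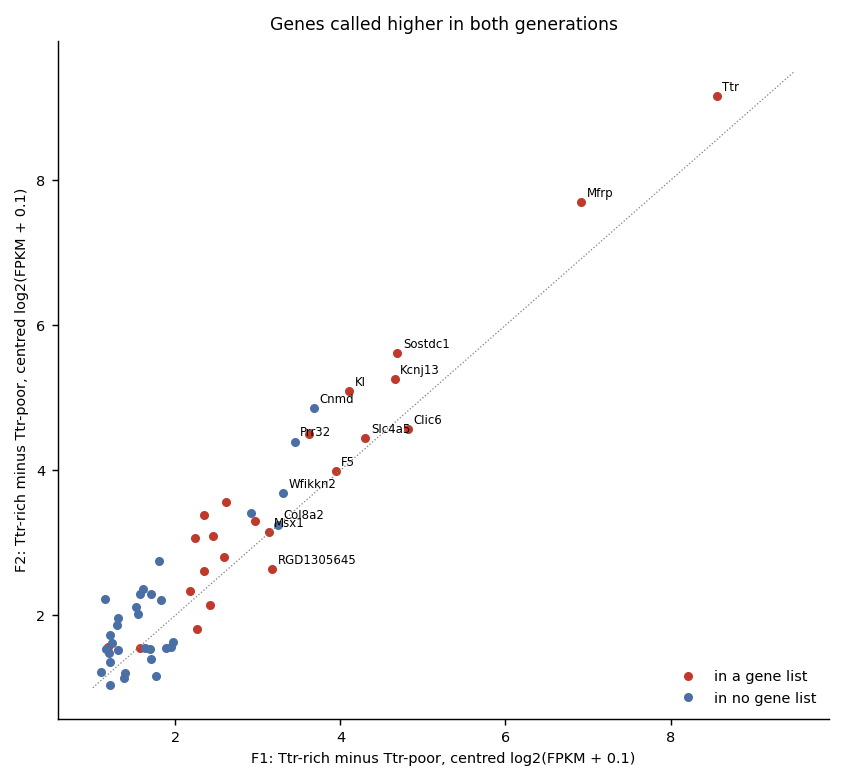
Differences in F1 (x axis) and F2 (y axis), in centred log2(FPKM + 0.1), for the 55 genes called higher in both generations, in red where the gene was in a list and blue where not, with a dotted line of equality. Ttr and Mfrp stand apart at the top right, and most points lie between 1 and 3 on both axes.

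How far each gene tracked the amount of Ttr was described by its FPKM above the Ttr-poor median, per 1000 FPKM of Ttr. For Mfrp this ran from 5.99 to 9.06 over the 6 libraries, a 1.51-fold range, although Ttr itself spanned 973 to 12103. The range was 1.52-fold for Folr1, 1.54-fold for Calml4 and 1.58-fold for Sostdc1. Aqp1 (1.95-fold), Cldn2 (2.14-fold) and Kl (3.02-fold) were looser. F5 varied 7.49-fold, since it reached 7.30 FPKM in F1 IUO replicate 3 but only 1.67 in F2 IUO replicate 1, where Ttr was highest. Enpp2 (5.03-fold) and Slc4a2 (6.44-fold) also varied more, with the highest ratio in F1 IUO replicate 4, the library with the least Ttr.

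Genes of neighbouring cells and tissues moved too. Every list median that follows was below that of each choroid plexus list other than solute transport, the lowest of these being 1.29 for receptors. The medians of fenestrated endothelium, ependyma, septum (0.92), cortex and meninges were above the solute transport median of 0.54. None of the lists that follow had a gene whose FPKM did not overlap, and their part in the results above was not tested. Of 14 multiciliated ependyma genes tested, 7 had a difference of at least 1 and the median was 0.93, led by the cilium genes Fam183b (1.90) and Cfap126 (1.51). Cfap126 ran from 10.5 to 45.5 FPKM against 2.30 to 17.8. The mean log2(FPKM + 0.1) of the list ran from 0.87 to 2.13 in the Ttr-rich libraries and from -0.70 to 1.58 in the Ttr-poor ones.

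Of 12 fibroblast and meningeal genes, all 12 had a positive difference and 3 reached 1, with a median of 0.70. Of all 19134 genes, 13611 had a positive difference. Their mean log2(FPKM + 0.1) ran from 1.44 to 3.49 in the Ttr-rich and from 0.69 to 2.55 in the Ttr-poor libraries. The fenestrated endothelium list had 3 genes, of which 2 had a difference of at least 1, and its median was 1.21. Plvap, the diaphragm protein of such capillaries, differed by 1.21, with 2.98 to 13.7 FPKM against 0.94 to 5.39, Esm1 by 1.30 and Emcn by -0.05. The blood-brain barrier endothelium list (median 0.08), border macrophages (0.02), blood (0.26), astrocytes (0.07) and oligodendrocytes (0.03) held 0 genes with a difference of at least 1. Hindbrain Hox genes were below the level tested or not analysed here.

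Striatal neuron genes were lower in the Ttr-rich libraries: all 12 had a negative difference, from -0.68 to -0.19, with a median of -0.40. The projection neuron genes Drd1 (6.87 to 16.9 FPKM against 8.64 to 27.2), Drd2 (15.8 to 44.2 against 16.3 to 69.2) and Ppp1r1b (196 to 359 against 167 to 549) overlapped between the sets, and these striatal markers were detected in every library. All 6 cortical genes were positive, with a median of 0.76 and Neurod2 at 1.0, and their mean log2(FPKM + 0.1) ran from 3.02 to 4.16 against -0.38 to 4.26. Over all 19134 genes, 13611 differences were positive and 5523 negative. Of 4 septal genes, Zic2 (1.28) and Zic1 (1.03) were higher and Lhx8 (-0.89) lower. The 10 thalamus and habenula genes had a median of 0.38 and the 8 hypothalamus genes one of -0.10.

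**Figure D4:**
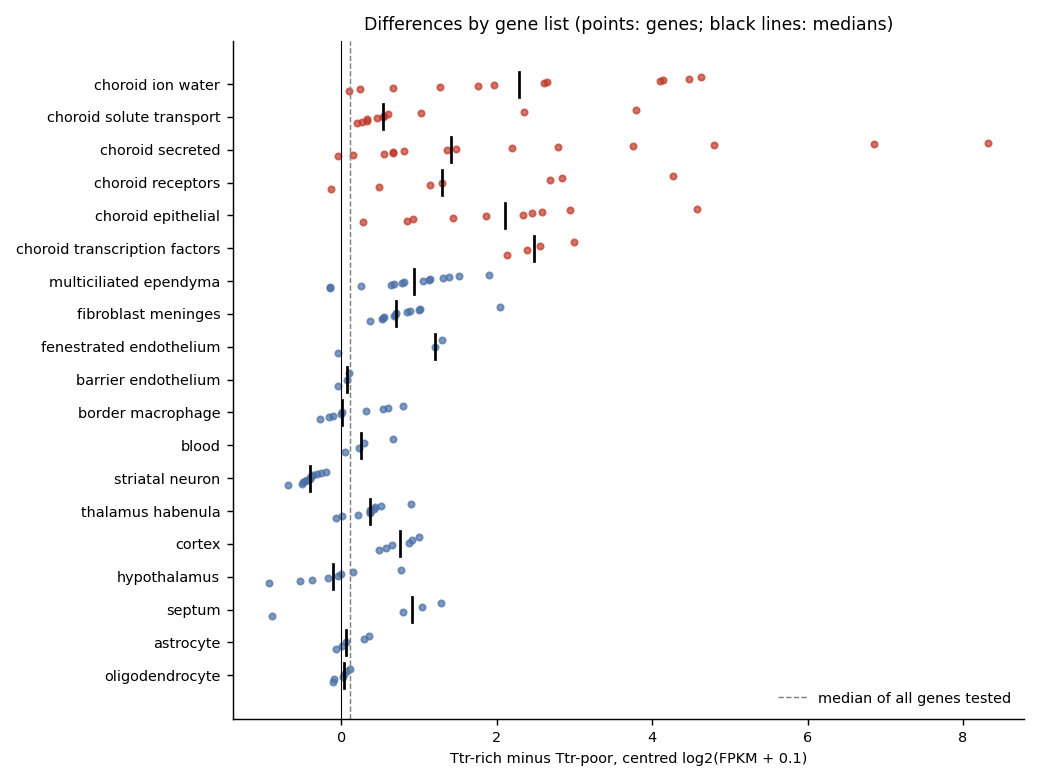
Difference of every tested gene (points; x axis, centred log2(FPKM + 0.1), Ttr-rich minus Ttr-poor) in 6 choroid plexus lists (red) and 13 other lists (blue), with black lines at list medians and a dashed line at the median of all genes, 0.12. The ion and water, epithelial and transcription factor lists have medians above 2, and the striatal neuron list lies wholly left of 0.

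The library between the limits, F1 PNO replicate 1, was above every Ttr-poor library for 526 of all genes (2.75%), for 17 of the 58 choroid plexus genes and for 6 of the 22 called genes. Mfrp read 1.71 FPKM there, Kcnj13 1.83, Clic6 1.31 and Aqp1 0.93, each above the Ttr-poor range. Folr1, at 1.89, was instead at the Ttr-poor median of 1.91. The meningeal mean of that library, 2.94 on the log2 scale, was above the Ttr-poor range, with Col1a1 at 35.8 FPKM against 8.28 to 31.5. Slc13a4, at 9.75, was above the Ttr-poor maximum of 7.39 but below every Ttr-rich library other than F1 IUO replicate 4. RGD1305645, at 4.94, stood close to its Ttr-rich mean of 5.40. Both were thus high beside meningeal genes as well as beside Ttr.

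Slopes over the 17 Ttr-poor libraries alone asked whether genes rose with Ttr there, on genes that passed the level over all 24 libraries. The values of log2(FPKM + 0.1) were fitted on that of Ttr with limma, with the group as a term, for 19133 genes. No gene passed an adjusted p of 0.05 (0 rising, 0%, and 0 falling), while 449 genes (2.35%) rose and 270 fell at an unadjusted p under 0.05. Among 57 choroid plexus genes, 45 slopes were positive and 2 (Mfrp and RGD1305645) were under 0.05 unadjusted. Their median slope was 0.08, against 0.02 over all genes, of which 62.2% had positive slopes. The count of 45 was not stable: it was 34 of 57 with a replicate block and 36 of 57 without the group term. With the level judged over the Ttr-poor libraries alone, a choice made after seeing the data, 0 of 18510 genes passed the adjusted p. Mfrp kept the smallest p there, but not in every other setting.

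Mfrp had the smallest p of all genes, with a slope of 0.69 (SE 0.11, 95% interval 0.46 to 0.93) and an adjusted p of 0.419 (limma). It read 0.96 FPKM in F2 SAL replicate 3 and was listed at 0 in 4 libraries with low Ttr. Clic6 had a slope of 0.31 (SE 0.15) and Sostdc1 one of 0.19 (SE 0.15). Kl, at -0.06 (SE 0.15), and Folr1, at -0.08 (SE 0.19), gave no positive slope. The other genes among the 10 smallest p included Rras2, Kcnrg, Pnpla6, Cracr2b, Theg and Fgf12, none of them in the choroid plexus lists.

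Because Ttr-rich libraries were spread unevenly over the groups, the choroid plexus genes were also followed through the 6 comparisons of the study. The rule for a pass was limma's p, unadjusted, under 0.05 together with a ratio of mean FPKM of 2 or more in either direction. With all libraries, 0 choroid plexus genes passed between F1 IUO and F1 SAL (1.61% of all genes did), F1 PNO and F1 SAL (1.86%), F2 IUO and F2 SAL (2.18%) and F2 IUO and F2 PNO (1.8%). Between F1 IUO and F1 PNO (2.95%) Slc6a20 and Lbp passed, lower in IUO, and between F2 PNO and F2 SAL (2.15%) 2 passed, Slc6a20 lower and Msx1 higher in PNO. No choroid plexus gene had an adjusted p under 0.05 in any of the 6.

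Msx1, at a mean of 4.73 FPKM in F2 PNO and 1.15 in F2 SAL, had a log2 fold change of 1.65 (SE 0.53) and an adjusted p of 0.382 (limma). Without F2 PNO replicate 4, the Ttr-rich library of that group, the fold change was 1.11 (SE 0.36). Slc6a20, an imino acid transporter gene, changed by -0.96 (SE 0.37) there and by -1.02 (SE 0.42) without that library.

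Leaving out the Ttr-rich libraries removed them by Ttr, so Ttr is not counted here. The step took 2 libraries from F1 IUO, 1 each from F1 PNO, F1 SAL, F2 IUO and F2 PNO, and 0 from F2 SAL. Genes that travel with Ttr lost their highest values too, unequally over the groups. Changes that follow from the step are therefore in part built in. Of the other choroid plexus genes, 4 passed between F1 IUO and F1 SAL, where 1.74% of all genes did. These were Steap1, RGD1305645, Calml4 and Otx2, all lower in IUO. Ttr itself went the other way there, at 6.12 and 22.8 FPKM in F1 IUO against 1.75 to 3.19 in F1 SAL. Leaving Ttr out, no choroid plexus gene passed between F1 PNO and F1 SAL (2.92%), F2 IUO and F2 SAL (2.63%) or F2 IUO and F2 PNO (1.87%). Between F1 IUO and F1 PNO (3.78%) 5 passed, Steap1, Slc6a20, Krt8, RGD1305645 and Calml4, all lower in IUO. Between F2 PNO and F2 SAL (3.01%) 5 passed, with Slc6a20, Stra6, Aqp1 and RGD1305645 lower and Msx1 higher in PNO. The share of all genes that passed was higher in each of the 6 comparisons than with all libraries. F1 PNO replicate 1 stayed in, so the F1 PNO mean of Ttr was 89.9 FPKM, against 2.27 in F1 SAL. Without Ttr, the median log2 fold change of the list went from 0.10 to -0.26 between F1 IUO and F1 SAL. It went from 0.13 to -0.15 between F1 IUO and F1 PNO, and from 0.19 to -0.30 between F2 IUO and F2 SAL. Between F2 PNO and F2 SAL it went from 0.20 to -0.30. It went from -0.04 to 0.01 between F1 PNO and F1 SAL and from -0.02 to 0.03 between F2 IUO and F2 PNO. None of these genes had an adjusted p under 0.05 either, and F1 IUO was left with 2 libraries.

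Aqp1 shows how a single library set a group's mean FPKM. The study also measured Aqp1 by RT-PCR and reported it as significant in F2. That is another assay, its values were not examined here, and what follows concerns the RNA-Seq libraries alone. Its mean was 3.09 FPKM in F2 IUO, 2.57 in F2 PNO and 0.508 in F2 SAL. Within F2 IUO it was 11.4 in replicate 1 and between 0.27 and 0.38 in the other 3, and within F2 PNO it was 9.91 in replicate 4 and between 0.08 and 0.20 in the others. Without these 2 libraries the means were 0.337 and 0.127 FPKM, both below F2 SAL, from which no library was removed. The 2 libraries were left out for their Ttr and held the most Aqp1 of their groups, so a fall was built in. The log2 fold change for F2 IUO against F2 SAL went from 0.87 (SE 1.04) to -0.31 (SE 0.54), with adjusted p of 0.802 and 0.850 (limma). For F2 PNO against F2 SAL it went from 0.09 (SE 1.20) to -1.28 (SE 0.54), with adjusted p of 0.982 and 0.299 (limma).

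**Figure D5:**
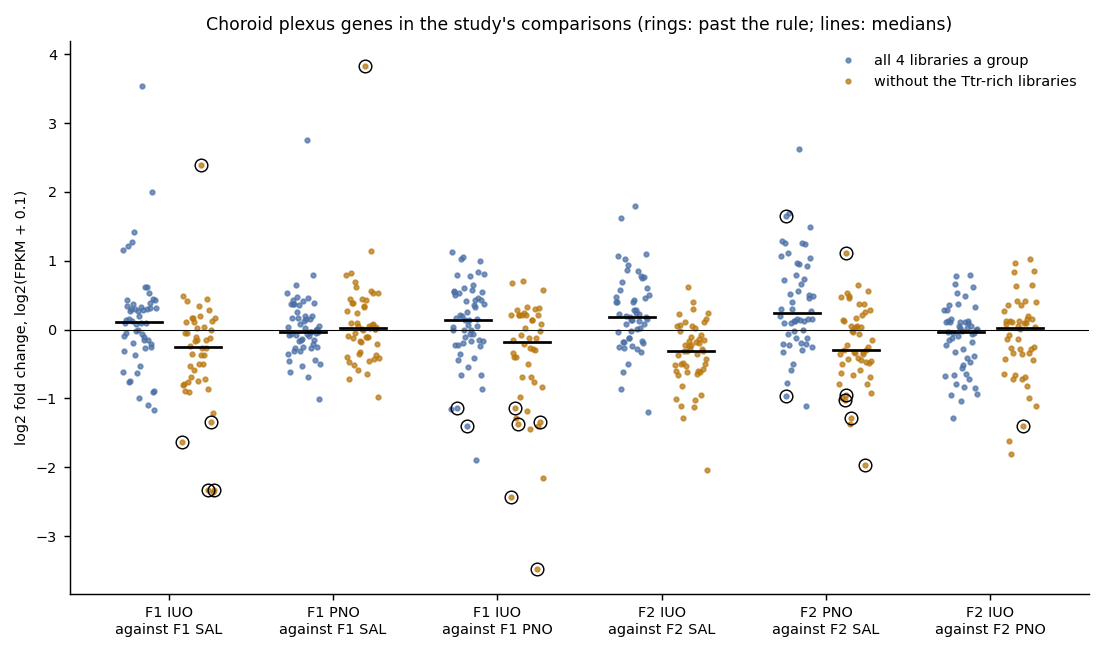
Log2 fold change (y axis, on log2(FPKM + 0.1)) of each choroid plexus gene in the 6 comparisons, with all libraries (blue) and without the Ttr-rich libraries (brown), black lines at medians and rings around genes that passed the rule, Ttr included. In 4 of the comparisons the median, here with Ttr included, moves from above to below 0, the widest move being from 0.24 to -0.29 between F2 PNO and F2 SAL.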

How the data were processed

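RNA-Seq was run on P14 NAc from 24 pups. Values deposited by the authors are FPKM, 1 per gene in each library, for 23950 genes. The submitters' processing notes name HISAT2, StringTie, SAMtools and edgeR, with no role, and versions and the genome build are not given in the sources used here. The study's edgeR test needs counts and could not be run on FPKM, so limma was used. Depth is unknown, so precision rests on the spread between libraries.

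Values were handled as log2(FPKM + 0.1) for genes that reached 0.1 FPKM in at least 4 libraries, and centred by generation and treatment. Libraries with a Ttr FPKM of at least 500 were set against those under 100. Slopes on Ttr and the group comparisons used limma 3.58.1 (lmFit, eBayes with trend) in R 4.3.3, two-sided, with Benjamini-Hochberg adjusted p over all genes tested. Other steps used Python 3.11.15, numpy 2.4.6, pandas 2.3.3 and matplotlib 3.10.9. Both procedures were tested on simulated data, where unchanged genes also passed the rule for comparisons, whose p is unadjusted. The listed symbol Ecrg4 was matched to its older symbol RGD1305645 through RefSeq synonyms. Slco1a5, Foxj1, Abcb1a, Pecam1, Hba-a1, Dbx1, Prph2, Hoxa2, Hoxa3 and Hoxd3 were not analysed here, and Mcidas, Cldn5, Hoxb2 and Hoxb3 were below the level tested. Single values of 2 other listed genes are not reported here.

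Named genes were those of the lists, up to 20 called genes outside the lists with a mean of at least 1 FPKM in the Ttr-rich libraries, up to 10 called lower (0 were), the 10 smallest p for the slope, and choroid plexus genes that passed in a comparison. Genes without a symbol were counted only, and exceptions are marked in the text. The libraries, lists and tests were chosen with earlier results of these data known. Alternatives were a pseudocount of 1, 2 other filters, upper-quartile rescaling, no centring, a fitted group term, other Ttr limits, each generation alone, a replicate block and leaving out libraries. Promoters came from RefSeq, build GRCr8, matched by symbol, and no gene position was taken from the deposited files.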

Additional observations from a re-analysis of the deposited data

Results flagged for a closer look

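Kl, Folr1 and Clic6 were screened for single libraries far from the rest of their set, by Dixon's ratio on log2(FPKM + 0.1), in the 6 groups of 4 libraries and in the 6 Ttr-rich libraries. Ttr was left out of the screen because it chose the libraries. Chance flags about 1 in 20 independent sets, and 3 of 21 were flagged. That rate does not apply here, since most groups held a library chosen for high Ttr, in which these genes were higher too. The sets also share libraries. In F2 PNO, Kl (3.97 on the log2 scale) and Clic6 (3.83) stood apart in replicate 4, the only Ttr-rich library of that group. Among the 6 Ttr-rich libraries, Clic6 was low in F1 IUO replicate 4 (1.91), the library with the least Ttr. F1 IUO, with 2 Ttr-rich libraries, gave no flag.

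F1 PNO replicate 1, which entered neither set, was above every Ttr-poor library for 6 of the 22 genes called higher.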

How the results depend on the processing

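The number of genes higher in the Ttr-rich libraries, 22, was 9 with a pseudocount of 1, 41 without centring, 85 with a group term fitted beside the split, 109 with limits of 1000 and 50 FPKM, 111 in F1 alone, 433 in F2 alone, 116 against the own group (added after seeing the data) and 11 to 106 leaving out a Ttr-rich library. With an FPKM of at least 1 it was 17 and with upper-quartile rescaling 15. The number lower, 0, became 16 in F1 alone and 42 in F2 alone, and 0 to 1 leaving out a library. These sets differ in size, and 2 libraries overlap less readily than 6. Choroid plexus genes with a difference of at least 1, Ttr included, numbered 30 to 37 over these settings, with 53 to 58 tested. The main count on that footing was 36 of 58. Of 459 differences of 31 single genes under the alternatives, 437 moved by less than 1 SD over the Ttr-rich libraries, 0 reversed, and 20 of the 22 that moved did so with the pseudocount of 1. Genes with a slope past the adjusted p stayed at 0, rising or falling, in every alternative run, leaving out a library included. This includes the level judged over the Ttr-poor libraries alone, added after seeing the data. The slope of Mfrp ran from 0.19 (pseudocount 1) to 0.81 without F2 SAL replicate 3, and its adjusted p from 0.0856 to 1 (limma). Its p ranked 27 with an FPKM of at least 1, 17 with a replicate block and 7 with Ttr under 50. It also ranked 7 without F2 SAL replicate 1 or 3, and 2 without F2 PNO replicate 2 or 3.

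Choroid plexus genes past the rule without the Ttr-rich libraries numbered 5 (IUO against SAL), 1 (PNO against SAL) and 5 (IUO against PNO) in F1. In F2 they numbered 5 (PNO against SAL) and 1 (IUO against PNO). Ttr, by which the libraries were left out, is 1 of the first 5 and both of the single genes. Of all genes, 1.74%, 2.92% and 3.78% passed in these F1 comparisons and 3.01% and 1.87% in these F2 comparisons. With all libraries the counts were 2 for F1 IUO against PNO, 2 for F2 PNO against SAL and 0 for the other 4, and the settings that follow start from these. With an FPKM of at least 1 the F1 IUO against PNO and F2 PNO against SAL counts were 1 each. Leaving out a library, the counts ran from 0 to 3, 0 to 2 and 1 to 5 in F1 (IUO against SAL, PNO against SAL, IUO against PNO) and from 0 to 1, 1 to 5 and 0 to 2 in F2 (IUO against SAL, PNO against SAL, IUO against PNO). The upper ends above 1 came without F1 IUO replicate 3, F1 SAL replicate 1, F2 PNO replicate 4 and F2 IUO replicate 1, all Ttr-rich. In F2 IUO against SAL the 1 came without any of the 3 Ttr-poor IUO libraries. With a replicate block the F2 PNO against SAL count was 1, the F1 IUO against PNO count 3 and the other 4 remained 0. Same-numbered libraries of different groups did not deviate together (median r = -0.02 over 60 pairs, against 0.00 for other numbers), so the numbers do not pair the samples. Depth limits the genes near 0, and how much it does is unknown.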
